A study of Mus musculus with 10 samples.

Results

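The genes described here are the listed members of the homeobox families and their partners: the HOX, PAX, PITX, MEIS, PBX, MEOX, MSX, IRX, DLX, LHX, PRRX, ZFHX and TSHZ genes, sine oculis genes such as Six2, Six4 and Six5, and the EYA genes, whose products act with the sine oculis factors. They were chosen by symbol alone, as every row whose name starts with one of these family names (or LBX) followed by a number, which gave 43 of the 16697 named genes of the table. Their RNA was measured by RNA-seq in 10 mouse liver libraries. The comparison of the tumor groups asked how adding active FOXO1 altered the expression features of c-MYC tumors, and the normal livers gave the level outside tumors.

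NL were normal livers of wild-type mice (n = 4). The c-MYC tumors (n = 3) were hepatocellular carcinomas induced by hydrodynamic tail vein injection, which brings plasmids into hepatocytes, where the sleeping beauty transposase inserts them into the genome, and these mice also received the empty vector pT3. The c-MYC/FOXO1AAA tumors (n = 3), called FOXO1AAA below, carried in its place pT3-FOXO1AAA, a constitutively active FOXO1 driven by the EF1α promoter. The labels give the genotype of all 10 mice as WT and their strain as C57BL/6, whereas the extraction protocol names FVB for the normal livers. No label gives the age or the sex of single mice, a library date or a batch, and each library is taken to be 1 animal, which the labels do not state, so that the p-values measure the spread between these libraries.

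Homeobox genes encode transcription factors that bind DNA through a helix-turn-helix fold, the homeodomain, and lay down position and cell fate in the embryo. HOX genes set position along the body axis with PBX and MEIS proteins as DNA-binding partners, sine oculis factors switch on early muscle, kidney and sensory organ genes together with EYA coactivators, and MSX, PRRX, PITX, MEOX, TSHZ and IRX factors mark mesenchyme and its derivatives. Adult hepatocytes use few of them, and in liver Lhx2 is best known from stellate cells.

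Levels are given as FPKM, reads scaled to gene length and to the authors' scaled library size. A gene was called higher or lower where its log2 FPKM differed by more than 1.5-fold at an adjusted p below 0.05 (limma treat, Benjamini-Hochberg over all 16697 genes). The libraries held 13123719 to 20547746 reads in listed genes, and the authors' scaling factors were 0.649 to 0.684 in NL, 1.256 to 1.295 in c-MYC and 1.454 to 1.502 in FOXO1AAA. Foxo1 itself, which the deposited rows do not split into the mouse gene and the transgene, stood at 7.16, 6.67, 7.86 and 6.8 FPKM in NL, at 5.25, 6.45 and 5.16 in c-MYC and at 95.6, 83.6 and 70.1 in FOXO1AAA (log2 fold change 3.88 ± 0.14 (SE), adjusted p = 2.47e-08 against c-MYC), in the order of the labels. The 10 hepatocyte markers summed to 115000 to 124000 FPKM in NL, 5540 to 7250 in c-MYC and 1160 to 2590 in FOXO1AAA, so the labelled liver tissue carried its defining markers in every group, at a lower level in tumors. Because these are bulk tissues, fewer cells of a type and less RNA per cell cannot be told apart.

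Levels over the 43 listed genes are given first, and how a gene came to be listed, which bears on each of these summaries, follows. The FPKM of all members summed to 49.1, 45.9, 44.8 and 52.1 in NL, to 59.8, 69.1 and 64.6 in c-MYC and to 154, 146 and 128 in FOXO1AAA, without overlap between any of the groups. The mean level reached 1 FPKM for 13 members in NL, 9 in c-MYC and 21 in FOXO1AAA, and 6 members in NL, 5 in c-MYC and 0 in FOXO1AAA had 0 reads in every library. Between the tumor groups, 22 members (51.2%) were higher in FOXO1AAA, where 17.2% of all genes tested were, and 4 (9.3%) were lower, against 11.6% of all genes. The median log2 fold change of the members was 1.61 (also with the 4 genes at 0 reads in c-MYC put at their bound), beside 0.07 for all genes. By contrast, c-MYC against NL gave 6 higher members (14.0%, against 22.5% of all genes), 7 lower (16.3%, against 22.3%) and a median of 0.0, beside 0.06 for all genes. Quantile normalization changed the count between the tumor groups to 18 higher and 7 lower. For c-MYC against NL, setting all libraries to the same FPKM total, which moved the median of all genes to 0.99, gave 10 higher and 6 lower.

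The sums, the counts and the median depend in part on how a gene came to be listed. Every listed gene exceeded 0.5 CPM (reads scaled to the same library size) in at least 2 of the 10 libraries. Of the members, 14 reached this level only with the help of the FOXO1AAA libraries (32.6%, against 7.38% of all genes). Among them were Dlx3, Eya1, Eya2, Eya4, Irx5, Lhx9, Meox2, Pbx4, Pitx1, Pitx3, Prrx2, Six2 and Tshz3. A gene listed in that way tends to be high there: 13 of these 14 members were called higher than in c-MYC, as were 66.6% of the 1232 such genes of the whole table. Their calls, and the sums and the median that hold them, therefore cannot count as support, and their values below are a description of size. The 27 members that reached the level in at least 2 NL libraries were listed whatever their tumor levels. Of these, 8 (29.6%) were higher in FOXO1AAA than in c-MYC, where 13.4% of the 14522 genes listed in the same way were, and 4 (14.8%) were lower, where 12.3% were. Their median log2 fold change was 0.17, beside 0.0 for all genes listed in the same way. Among the 8 were Lhx2, Meis2, Msx1, Pbx3, Prrx1 and Six5.

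**Figure D1:**
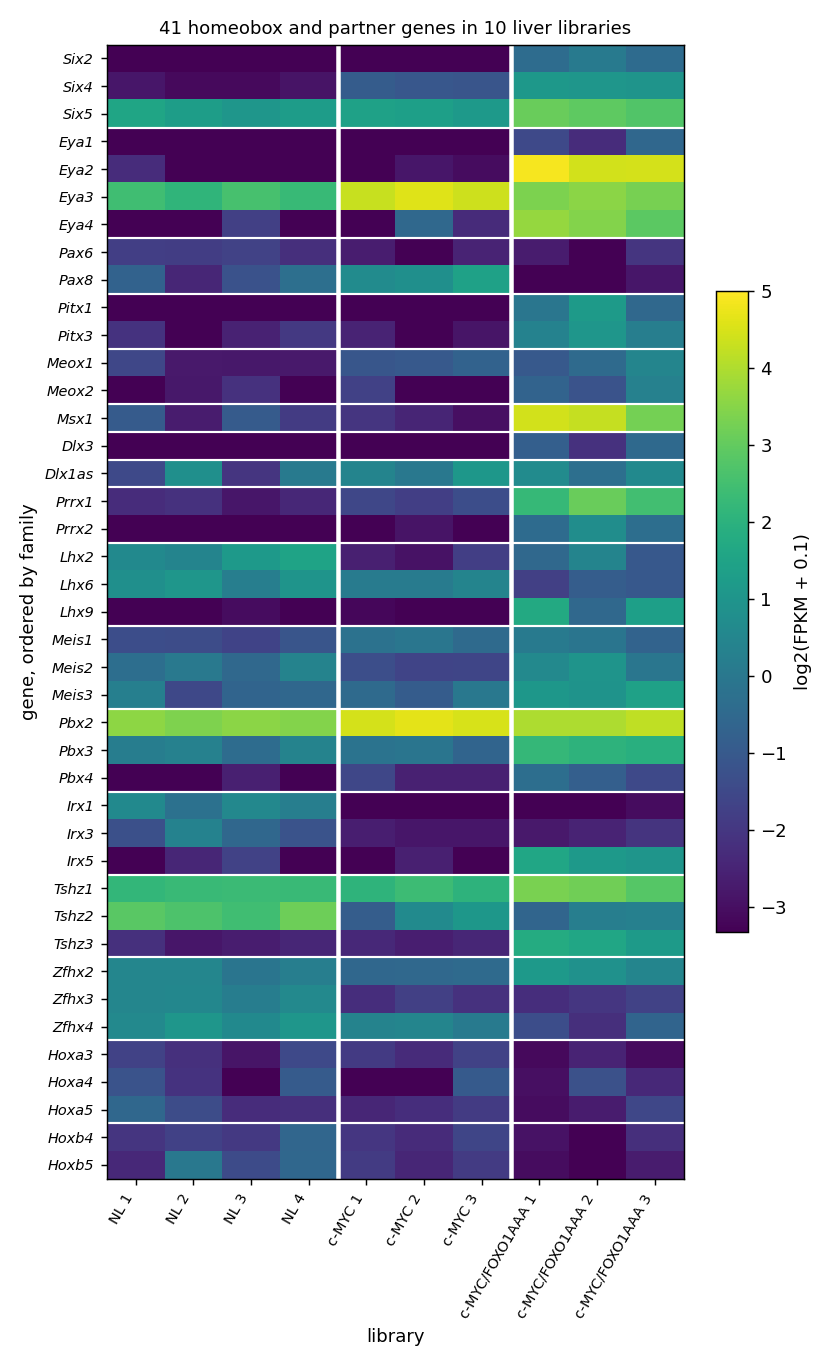
Level of 41 of the 43 genes (rows, ordered by family) in each of the 10 libraries (columns), as log2(FPKM + 0.1), with white lines between families and between groups. The sine oculis (top), EYA (apart from Eya3), PITX, MSX and PRRX rows brighten in the 3 c-MYC/FOXO1AAA columns. The 5 HOX rows stay below 1 FPKM in all 10 columns. Irx1, Zfhx3 and Tshz2 are brighter in the 4 NL columns, and Lhx2 is darkest in the c-MYC columns.

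The sequence just upstream of the start sites is described next, over the members of every direction together. RefSeq's promoter table (GRCm38.p6) held 28 of the 43 members with 34 start sites. The 250 bases before these starts had a median GC content of 61.8% and a median of 15 CG dinucleotides, beside 52.4% and 6 over all 32851 promoters of the table. Shown 5′ to 3′ on the gene's strand, with CG dinucleotides in capitals, are 3 genes that were higher in FOXO1AAA than in c-MYC, Msx1 (chr5:37824586-37824835, minus strand), Tshz3 (chr7:36697868-36698117, plus strand) and Lhx2 (chr2:38339031-38339280, plus strand), and the gene with the largest fall, Pax8 (chr2:24475600-24475849, minus strand).
Msx1: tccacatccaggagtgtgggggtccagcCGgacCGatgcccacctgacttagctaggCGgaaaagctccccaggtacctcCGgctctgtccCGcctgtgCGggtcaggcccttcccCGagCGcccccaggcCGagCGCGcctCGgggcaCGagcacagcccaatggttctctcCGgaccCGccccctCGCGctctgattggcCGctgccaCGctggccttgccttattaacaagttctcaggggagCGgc
Tshz3: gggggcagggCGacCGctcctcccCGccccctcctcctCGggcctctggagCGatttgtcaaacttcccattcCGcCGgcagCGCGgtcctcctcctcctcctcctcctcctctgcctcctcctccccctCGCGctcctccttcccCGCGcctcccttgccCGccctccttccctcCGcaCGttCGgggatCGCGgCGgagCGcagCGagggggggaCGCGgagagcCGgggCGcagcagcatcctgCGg
Lhx2: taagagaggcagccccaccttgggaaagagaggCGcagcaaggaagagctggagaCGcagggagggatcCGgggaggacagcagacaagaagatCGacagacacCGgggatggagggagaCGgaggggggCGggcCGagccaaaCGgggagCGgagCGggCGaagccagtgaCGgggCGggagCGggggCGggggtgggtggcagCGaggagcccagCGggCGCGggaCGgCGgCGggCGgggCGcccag
Pax8: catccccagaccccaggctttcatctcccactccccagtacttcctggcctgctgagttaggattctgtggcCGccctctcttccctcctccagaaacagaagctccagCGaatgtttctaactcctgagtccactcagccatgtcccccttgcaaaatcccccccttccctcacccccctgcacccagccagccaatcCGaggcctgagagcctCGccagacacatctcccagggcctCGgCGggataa
The windows of Msx1, Tshz3 and Lhx2 held 20, 27 and 25 CG dinucleotides, and that of Pax8 held 6. A second Lhx2 start site held 24. These windows are examples, and the count did not separate the members by direction. Prrx1 and Lhx9, also higher in FOXO1AAA than in c-MYC, held 4 each, and Eya3, which was lower, held 18. The FOXO motif GTAAACA, searched on both strands, was in 0 of the 34 windows and in 3.17% of all promoters, and the E-box CACGTG, which reads the same on both strands, was in 0 of the 34 and in 6.02% of all. These counts concern only these letters in these windows.

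Eya2, one of the EYA genes, which act with sine oculis factors as coactivator and activator, held the largest difference between the tumor groups. Eya2 (chr2:165595032-165771727), a coactivator and phosphatase, was also the most abundant member in FOXO1AAA. Its level was 0.11, 0, 0 and 0 FPKM in NL, 0, 0.0432 and 0.0221 in c-MYC and 29.8, 21.4 and 21.9 in FOXO1AAA. All 3 FOXO1AAA libraries thus lay far above the other 7. Pooled over c-MYC, which held 3 reads, the ratio was 1110, with a 95% interval of 379 to 5370 that covers counting error only (log2 fold change 8.48 ± 0.49 (SE), adjusted p = 2.86e-07).

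Six4 (chr12:73099609-73113456) differed at both steps. In NL it stood at 0.0424, 0.0166, 0.016 and 0.0348 FPKM, in c-MYC at 0.434, 0.381 and 0.357 and in FOXO1AAA at 2.07, 1.95 and 1.88. The groups did not overlap at either step, and Six4 was the only one of the 43 members called higher in all 3 comparisons. The mean rose 14.2-fold from NL to c-MYC (log2 fold change 3.2 ± 0.31, adjusted p = 1.45e-05) and 5.03-fold from c-MYC to FOXO1AAA (2.28 ± 0.33, adjusted p = 0.00097). Adding 1 FPKM before the logarithm took the first step to 0.44 with an adjusted p of 1.0, since both groups lie below 1 FPKM. Six2, known from kidney progenitors, had 0 reads in all 7 NL and c-MYC libraries and stood at 0.672, 0.961 and 0.647 FPKM in FOXO1AAA, at least 25.5-fold higher than in c-MYC, taking 3 reads over the group as the most that a count of 0 allows (adjusted p = 6.97e-06). Six5, which was listed through the NL libraries too, did not start from 0. Its level was 2.37 ± 0.366 FPKM (SD, n = 4) in NL, 2.43 ± 0.216 (n = 3) in c-MYC and 7.54 ± 0.888 (n = 3) in FOXO1AAA, 3.1-fold that of c-MYC (adjusted p = 0.000517). Six2, Six4 and Six5 were therefore all higher in FOXO1AAA than in c-MYC.

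The remaining EYA genes divided. Eya1 had 0 reads in the 7 NL and c-MYC libraries and stood at 0.258, 0.107 and 0.58 FPKM in FOXO1AAA, with 7 to 25 reads per library, at least 12.8-fold higher than in c-MYC (adjusted p = 0.00293). The mean of 0.315 FPKM dropped to 0.182 without FOXO1AAA replicate 3. Eya4 stood at 0, 0, 0.196 and 0 FPKM in NL, at 0, 0.609 and 0.104 in c-MYC and at 12.8, 10.8 and 7.41 in FOXO1AAA (log2 fold change against c-MYC 4.7 ± 0.47, adjusted p = 2.33e-05). The ratio of its means was 43.4, and 6 of the 7 c-MYC reads came from replicate 2, without which the c-MYC mean was 0.052 in place of 0.238 FPKM. The authors' length for Eya4 was 523 bases, where its longest annotated transcript has 5304, so its FPKM cannot be set beside the levels of other genes. Eya3, the EYA gene that adult tissues express widely, followed another course. It stood at 5.34, 4.25, 5.83 and 4.79 FPKM in NL, at 19.8, 23.9 and 20.3 in c-MYC and at 10.2, 11.7 and 9.61 in FOXO1AAA. It was thus highest in c-MYC, where it rose 4.22-fold over NL (log2 fold change 2.08 ± 0.14, adjusted p = 2.11e-06), and lower by 1.02 ± 0.15 on the log2 scale in FOXO1AAA (adjusted p = 0.0234). This fall was not called without c-MYC replicate 2 (adjusted p = 0.0863), without FOXO1AAA replicate 1 (0.0631), without replicate 3 of that group (0.0723) or with all libraries at the same FPKM total (0.16).

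**Figure D2:**
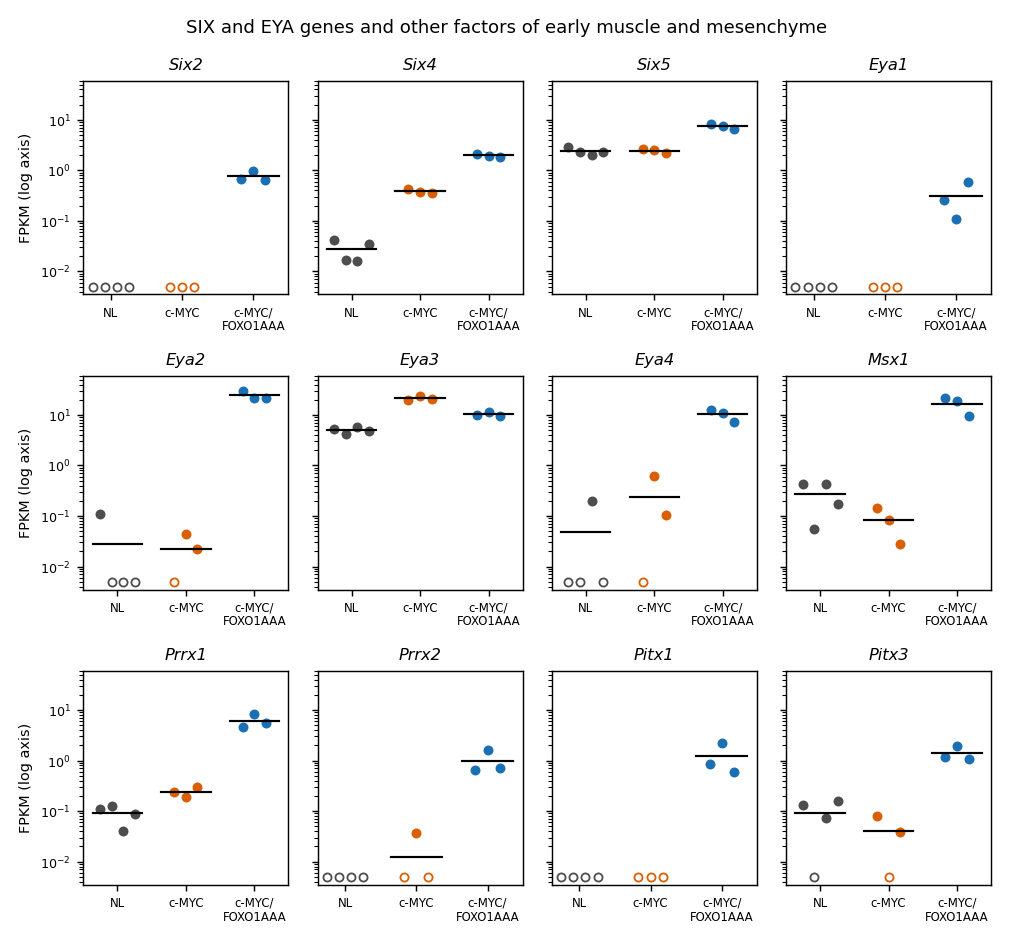
FPKM (log axis) of 12 genes in each library of NL (n = 4), c-MYC (n = 3) and c-MYC/FOXO1AAA (n = 3); filled points are libraries, black bars are group means, and open points at the foot are libraries with 0 reads, which a log axis cannot show. In 11 of the 12 panels the c-MYC/FOXO1AAA points lie above all others; in the panel of Eya3 the c-MYC points do, at 19.8 to 23.9 FPKM.

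The myogenic genes that work beside the sine oculis and EYA proteins in the embryo moved in the same libraries. Of the 14 listed, 13 were higher in FOXO1AAA than in c-MYC (92.9%, against 17.2% of all genes). None was lower, against 11.6% of all genes (0 also at an unadjusted p under 0.05 and by voom). Only 4 of them reached the listing level in at least 2 NL libraries, and 3 of these 4 were higher. The T-box factor Tbx15 had 0 reads in the 7 NL and c-MYC libraries and a mean of 57.9 ± 7.44 FPKM (SD, n = 3) in FOXO1AAA, and Acta1, skeletal muscle actin, a mean of 110 ± 18.1 FPKM. Of the 8 skeletal muscle markers, 6 were higher in FOXO1AAA than in c-MYC, and they summed to 0.653 to 1.46 FPKM in NL, 2.93 to 7.81 in c-MYC and 340 to 457 in FOXO1AAA. Myod1, Myog, Myh1 and Tnnt3 had at most 3 reads in every NL and every c-MYC library. The neural markers held Olig2, at 0 reads in NL and c-MYC and at 65.5 ± 15.4 FPKM in FOXO1AAA. Of the 6 listed, 2 were higher in FOXO1AAA than in c-MYC (33.3%, against 17.2% of all genes). Olig2 was listed only with the help of the FOXO1AAA libraries, so its rise is a description of size. Of the 5 neural markers that reached the level in at least 2 NL libraries, 1 was higher, where 13.4% of genes listed in the same way were. The part of these cell type markers in the differences of the sine oculis and EYA genes was not tested.

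Among the factors of mesenchyme, Msx1 (chr5:37820485-37824583), which keeps embryonic mesenchyme undifferentiated, reached the level of the most abundant members. It stood at 0.421, 0.0548, 0.423 and 0.173 FPKM in NL, at 0.141, 0.0823 and 0.0281 in c-MYC and at 21.5, 19.3 and 9.46 in FOXO1AAA. NL and c-MYC overlapped, while all FOXO1AAA libraries lay above them, with a mean 200-fold that of c-MYC (log2 fold change 6.85 ± 0.57, adjusted p = 4.61e-06). The c-MYC mean rested on 9 reads and was 0.0552 in place of 0.0837 FPKM without replicate 1. Prrx1 (chr1:163245119-163313710), a factor of limb and fibroblast mesenchyme, gave 0.109, 0.128, 0.0411 and 0.0894 FPKM in NL, 0.24, 0.192 and 0.295 in c-MYC and 4.66, 8.47 and 5.43 in FOXO1AAA. The groups did not overlap, but the step from NL to c-MYC was not called (log2 fold change 1.25 ± 0.36, adjusted p = 0.0964), whereas that to FOXO1AAA was 25.5-fold (4.52 ± 0.39, adjusted p = 7.91e-06). Its paralog Prrx2 had 0 reads in NL and 1 in c-MYC, and 0.648, 1.6 and 0.708 FPKM in FOXO1AAA, a pooled ratio of 84 to c-MYC with a counting interval of 14.8 to 3350 (log2 fold change 3.41 ± 0.38, adjusted p = 7.01e-05).

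Pitx1, a factor of the hindlimb and pituitary, had 0 reads in the 7 NL and c-MYC libraries. Its level in FOXO1AAA was 0.861, 2.2 and 0.603 FPKM, at least 55.4-fold higher than in c-MYC (log2 fold change 4.51 ± 0.43, adjusted p = 1.68e-05), and the mean was 0.732 in place of 1.22 FPKM without replicate 2. Pitx3, a factor of lens and midbrain that is also used in muscle, had 3 reads over c-MYC and 1.18, 1.96 and 1.07 FPKM in FOXO1AAA, a pooled ratio of 37.5 with a counting interval of 12.6 to 184 (adjusted p = 0.00019). Tshz3, a zinc-finger homeobox factor of smooth muscle differentiation, stood at 0.124, 0.0416, 0.0603 and 0.0874 FPKM in NL, at 0.0962, 0.0625 and 0.0854 in c-MYC and at 3.37, 2.94 and 2.23 in FOXO1AAA. NL and c-MYC overlapped, and FOXO1AAA was 35-fold above c-MYC (log2 fold change 4.77 ± 0.37, adjusted p = 3.63e-06). Dlx3, a factor of epidermis and placenta, was the faintest of these genes, with 0 reads in NL and c-MYC and 0.467, 0.128 and 0.626 FPKM in FOXO1AAA (adjusted p = 0.000673).

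The somite factors Meox1 and Meox2 were called in different comparisons. Meox1 stood at 0.244, 0.0476, 0.046 and 0.05 FPKM in NL, at 0.367, 0.405 and 0.513 in c-MYC and at 0.401, 0.631 and 1.28 in FOXO1AAA. NL lay below both tumor groups, which overlapped each other, and c-MYC was 4.42-fold above NL (log2 fold change 1.85 ± 0.48, adjusted p = 0.0274). This call was lost without NL replicate 2 (adjusted p = 0.0611), NL replicate 3 (0.062), NL replicate 4 (0.0608), c-MYC replicate 2 (0.0572) or c-MYC replicate 3 (0.0812), and the NL mean, 0.0968 FPKM, was 0.0479 without NL replicate 1. Meox2 stood at 0.208, 0 and 0 FPKM in c-MYC and at 0.533, 0.34 and 1.17 in FOXO1AAA (log2 fold change 2.91 ± 0.73, adjusted p = 0.0183). That call was lost without c-MYC replicate 2 (0.0777), c-MYC replicate 3 (0.0716) or FOXO1AAA replicate 3 (0.071, with a mean of 0.437 in place of 0.68 FPKM), and c-MYC without replicate 1 held 0 reads.

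The LIM-homeobox genes went different ways. Lhx9, a factor of gonad and limb, had 1 read in NL and 1 in c-MYC, and stood at 3.21, 0.604 and 2.49 FPKM in FOXO1AAA. Replicate 2 of that group lay well below the others of that group, and all 3 lay above the other groups. The pooled ratio to c-MYC was 540 with a counting interval of 96.6 to 21300 (log2 fold change 5.98 ± 0.57, adjusted p = 1.41e-05). Lhx9 was listed only with the help of the FOXO1AAA libraries, so this rise is a description of size. Lhx2 (chr2:38339281-38369733) was lower in c-MYC tumors than in either other group. It gave 1.44, 1.25, 2.11 and 2.76 FPKM in NL, 0.0643, 0.0313 and 0.193 in c-MYC and 0.598, 1.26 and 0.391 in FOXO1AAA. NL was 19.7-fold above c-MYC (log2 fold change of c-MYC against NL -3.62 ± 0.46, adjusted p = 9.95e-05), and FOXO1AAA was 7.82-fold above c-MYC (2.28 ± 0.49, adjusted p = 0.0112). The second call was lost without FOXO1AAA replicate 2 (adjusted p = 0.0512, group mean 0.495 in place of 0.751 FPKM), and under quantile normalization (0.134). The c-MYC mean was 0.0478 in place of 0.096 FPKM without replicate 3. Lhx6, a factor of interneurons and tooth mesenchyme, stood at 1.68, 1.97, 1.09 and 1.9 FPKM in NL, at 1.01, 1.0 and 1.24 in c-MYC and at 0.197, 0.447 and 0.387 in FOXO1AAA. The last group lay below both others, lower than c-MYC by 1.62 ± 0.34 on the log2 scale (adjusted p = 0.0229), a call lost without c-MYC replicate 3 (0.0698) or FOXO1AAA replicate 1 (0.0901).

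PBX and MEIS proteins belong to the TALE class, named for a short loop added to the homeodomain, and serve as partners of HOX and other factors. Pbx2 was the most abundant member in NL and in c-MYC. It stood at 12.0, 10.4, 11.6 and 10.9 FPKM in NL, at 21.8, 25.1 and 22.7 in c-MYC and at 15.8, 15.8 and 18.3 in FOXO1AAA, without overlap between groups. Its rise from NL to c-MYC was 2.07-fold (log2 fold change 1.04 ± 0.1, adjusted p = 0.00165), and the difference between the tumor groups was not called (adjusted p = 1.0, ratio 0.717).

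Pbx3, a partner of HOXA9 in leukemia, overlapped between NL and c-MYC and was higher in FOXO1AAA. It stood at 1.05, 1.15, 0.673 and 1.21 FPKM in NL, at 0.8, 0.841 and 0.547 in c-MYC and at 4.6, 4.04 and 3.73 in FOXO1AAA, 5.65-fold above c-MYC (log2 fold change 2.44 ± 0.28, adjusted p = 0.000161). Pbx4, the faintest PBX gene, had 1 read in NL and a mean of 0.479 ± 0.221 FPKM (SD, n = 3) in FOXO1AAA, and its difference from c-MYC was not called (adjusted p = 0.12, but 0.0444 without c-MYC replicate 1). Meis1, a partner of HOX and PBX proteins, was called higher in c-MYC than in NL. It stood at 0.288, 0.281, 0.217 and 0.354 FPKM in NL, at 0.772, 0.857 and 0.627 in c-MYC and at 0.973, 0.838 and 0.527 in FOXO1AAA. The tumor groups overlapped and had nearly the same mean (log2 fold change 0.02 ± 0.33, adjusted p = 1.0), and c-MYC was 2.64-fold above NL (1.36 ± 0.31, adjusted p = 0.0323). The latter call was lost without NL replicate 2 (adjusted p = 0.0515), NL replicate 3 (0.072), c-MYC replicate 1 (0.0773) or c-MYC replicate 2 (0.0934).

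Meis2 took the course of Lhx2. Its level was 0.858 ± 0.268 FPKM (SD, n = 4) in NL, 0.257 ± 0.0409 (n = 3) in c-MYC and 1.38 ± 0.503 (n = 3) in FOXO1AAA. It fell by 1.57 ± 0.34 on the log2 scale from NL to c-MYC (adjusted p = 0.0176) and was higher by 2.21 ± 0.36 in FOXO1AAA (adjusted p = 0.00247), calls that quantile normalization took to 0.0779 and 0.0825. At the same FPKM total the log2 fold change of c-MYC against NL was -0.64 and was not called (adjusted p = 0.562). Meis3 stood at 0.632, 0.431 and 0.916 FPKM in c-MYC and at 2.0, 1.84 and 2.63 in FOXO1AAA, without overlap, and was not called between them (log2 fold change 1.65 ± 0.44, adjusted p = 0.0591), although it was called without NL replicate 1 (0.0312), NL replicate 2 (0.0257) or c-MYC replicate 3 (0.0442). Of the 7 listed TALE partners and DACH cofactors that are not members, 4 were higher in FOXO1AAA than in c-MYC (57.1%, against 17.2% of all genes). One, or 14.3%, was lower, against 11.6% of all genes. Tgif1, a TALE repressor of TGF-beta signaling, had the course of Meis2, with 9.32 ± 0.895 FPKM (SD, n = 4) in NL, 1.24 ± 0.663 (n = 3) in c-MYC and 24.6 ± 4.48 (n = 3) in FOXO1AAA (log2 fold change between the tumor groups 4.38 ± 0.36, adjusted p = 7.16e-06). Pbxip1, a PBX-binding protein, stood at 105 ± 10.7 FPKM in FOXO1AAA and 19.8 ± 1.47 in c-MYC (2.4 ± 0.12, adjusted p = 4.62e-07), and Dach1, a partner of sine oculis and EYA proteins, at 0.757 ± 0.381 and 0.0174 ± 0.0159 (4.21 ± 0.62, adjusted p = 0.000451).

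**Figure D3:**
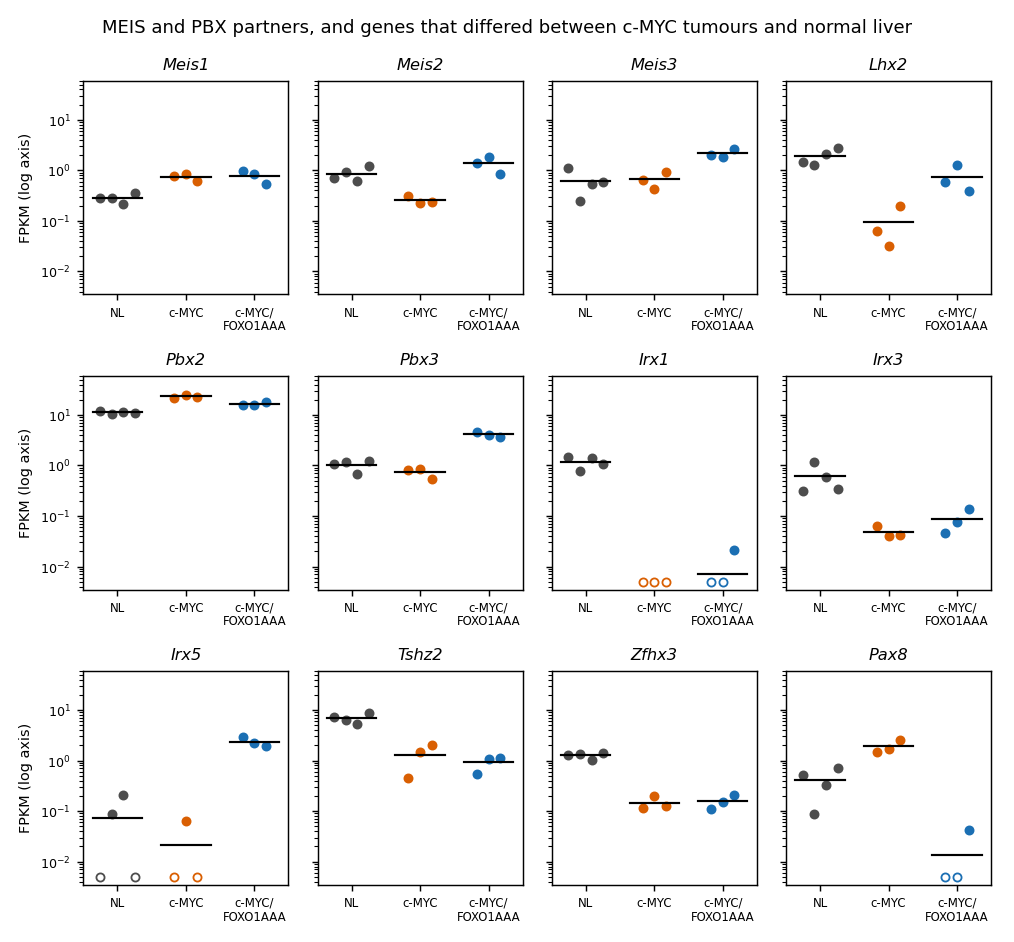
FPKM (log axis) of 12 genes in each library of NL (n = 4), c-MYC (n = 3) and c-MYC/FOXO1AAA (n = 3); filled points are libraries, black bars are group means, and open points at the foot are libraries with 0 reads. Meis2 and Lhx2 are lowest in c-MYC, Irx1, Irx3, Tshz2 and Zfhx3 are higher in NL than in both tumor groups, and Pax8 is highest in c-MYC, at 1.5 to 2.6 FPKM.

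Lhx2 and Meis2, with the limits given for each, were lower in c-MYC than in both other groups, and part of the markers of stellate cells and fibroblasts had the same course. Of these 15 markers, 8 were lower and 2 higher in c-MYC than in NL (against 22.3% and 22.5% of all genes). In FOXO1AAA, 9 were higher than in c-MYC (against 17.2% of all genes) and 0 lower (against 11.6%). The count of 0 lower held at an unadjusted p under 0.05 and by voom. Between FOXO1AAA and NL, 8 were higher (against 31.2% of all genes) and 3 lower, a smaller share than the 24.6% of all genes. The 15 markers summed to 105 to 131 FPKM in NL, 19.2 to 60.8 in c-MYC and 514 to 531 in FOXO1AAA. Dcn, a matrix proteoglycan of fibroblasts, stood at 69.7 ± 9.59 FPKM (SD, n = 4) in NL, 4.52 ± 3.16 (n = 3) in c-MYC and 236 ± 68.9 (n = 3) in FOXO1AAA, and none of the 15 had 3 reads or fewer throughout a group. Lrat, which stores retinol in stellate cells, took another course. It stood at 3.83 ± 0.429 FPKM in NL, 0.0746 ± 0.058 in c-MYC and 0.255 ± 0.154 in FOXO1AAA, was not called between the tumor groups (adjusted p = 0.123) and was lower in FOXO1AAA than in NL (log2 fold change -3.93 ± 0.51, adjusted p = 8.47e-05). The 5 mesothelial markers summed to 2.18 to 5.89 FPKM in NL, 0.146 to 0.481 in c-MYC and 3.98 to 9.5 in FOXO1AAA. At the first step 4 were lower (80.0%, against 22.3% of all genes), and at the second 4 were higher (80.0%, against 17.2%). Wt1, Lrrn4 and Upk1b had at most 3 reads in every c-MYC library. Endothelial, cholangiocyte, macrophage and lymphocyte markers summed to 15.6 to 24.5, 25.7 to 44.5, 103 to 143 and 2.66 to 3.88 FPKM in c-MYC and to 34.3 to 47, 32.4 to 40.4, 46.8 to 80 and 8.48 to 12.4 in FOXO1AAA. The part of these markers in the differences of the homeobox genes was not tested.

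The IRX genes, which sit in clusters and pattern heart, brain and limb, differed within a cluster. Irx1 (chr13:71957921-71963723) stood at 1.45, 0.76, 1.38 and 1.08 FPKM in NL, had 0 reads in all 3 c-MYC libraries, and had 1 read over the 3 FOXO1AAA libraries. It was at least 51.3-fold lower in c-MYC than in NL (adjusted p = 7.89e-07). Irx1 and Irx3 were listed through NL alone, so their falls are a description of size. Irx3 (chr8:91798525-91802067) stood at 0.312, 1.18, 0.589 and 0.342 FPKM in NL, at 0.0626, 0.0407 and 0.0417 in c-MYC and at 0.0467, 0.077 and 0.137 in FOXO1AAA. NL lay above both tumor groups, which overlapped, and c-MYC was lower than NL by 2.62 ± 0.45 on the log2 scale (adjusted p = 0.00152). Irx5 (chr8:92357625-92376286), which lies near Irx3 on chromosome 8, stood at 0, 0.0866, 0.209 and 0 FPKM in NL, at 0, 0.065 and 0 in c-MYC and at 2.95, 2.19 and 1.91 in FOXO1AAA. Its high level in FOXO1AAA stood beside a low level of Irx3 there. It was a pooled 107-fold above c-MYC with a counting interval of 36.5 to 523 (log2 fold change 5.2 ± 0.64, adjusted p = 9.71e-05). Irx5 was listed only with the help of the FOXO1AAA libraries, so this rise and the contrast with Irx3 are a description of size too.

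TSHZ and ZFHX genes encode large proteins with many zinc fingers beside homeodomains. Tshz2 stood at 7.23, 6.31, 5.31 and 8.76 FPKM in NL, at 0.454, 1.47 and 2.0 in c-MYC and at 0.551, 1.08 and 1.12 in FOXO1AAA. Both tumor groups lay below NL and overlapped each other, with a fall of 2.57 ± 0.44 on the log2 scale from NL to c-MYC (adjusted p = 0.00162). Zfhx3, also called ATBF1, a repressor of the alpha-fetoprotein gene in liver cells, gave 1.31, 1.34, 1.04 and 1.4 FPKM in NL, 0.114, 0.201 and 0.127 in c-MYC and 0.111, 0.15 and 0.211 in FOXO1AAA. Here too the tumor groups overlapped, and the mean of NL was 8.64-fold that of c-MYC (log2 fold change of c-MYC against NL -3.09 ± 0.32, adjusted p = 3.12e-05). Zfhx4 was called lower in FOXO1AAA than in c-MYC. It stood at 1.42, 1.95, 1.44 and 1.98 FPKM in NL, at 1.23, 1.27 and 0.96 in c-MYC and at 0.288, 0.119 and 0.542 in FOXO1AAA (log2 fold change between the tumor groups -2.06 ± 0.45, adjusted p = 0.0158). Without FOXO1AAA replicate 3 the mean was 0.203 in place of 0.316 FPKM, and without c-MYC replicate 2 the adjusted p was 0.05.

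Tshz1, on chromosome 18, was the third most abundant member of c-MYC, at 4.12, 5.14 and 4.1 FPKM, beside 4.47, 4.9, 5.03 and 4.91 in NL and 9.84, 9.14 and 6.95 in FOXO1AAA. The FOXO1AAA libraries lay above all others, but the 1.94-fold difference from c-MYC did not pass the test against 1.5-fold (adjusted p = 0.0783, but 0.0398 without c-MYC replicate 2 and 0.018 without FOXO1AAA replicate 3). Zfhx2 stood at 0.592, 0.597 and 0.628 FPKM in c-MYC and at 2.14, 1.75 and 1.28 in FOXO1AAA (adjusted p = 0.0203), a call lost without FOXO1AAA replicate 1 (0.0854) or replicate 2 (0.0554) and under quantile normalization (0.531).

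Pax8 (chr2:24420560-24475599), a factor of thyroid and kidney, was called higher in c-MYC than in both other groups. It stood at 0.513, 0.0858, 0.331 and 0.721 FPKM in NL, at 1.5, 1.67 and 2.6 in c-MYC and at 0, 0 and 0.0413 in FOXO1AAA, without overlap between groups. The rise from NL to c-MYC was 4.66-fold (log2 fold change 2.15 ± 0.47, adjusted p = 0.00967). From c-MYC, where 34 to 59 reads were counted per library, it fell to a single read over FOXO1AAA, a pooled level 176-fold lower with a counting interval of 31.1 to 7010 (log2 fold change -4.19 ± 0.51, adjusted p = 0.000107). Pax6, the other PAX gene listed, stood below 0.215 FPKM in all 10 libraries and was not called in any comparison. No muscle PAX gene (Pax3 or Pax7) was among the listed members.

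The HOX clusters contributed 5 listed genes, Hoxa3, Hoxa4 and Hoxa5 on chromosome 6 and Hoxb4 and Hoxb5 on chromosome 11, all from the front part of the clusters. Their group means lay between 0.158 and 0.462 FPKM in NL, between 0.125 and 0.162 in c-MYC and between 0.0251 and 0.145 in FOXO1AAA. None of the 5 was called by limma treat or by voom between c-MYC and NL or between the tumor groups, and 0 of the 5 had an unadjusted p under 0.05 there. The libraries held 0 to 16 reads of each, so differences of moderate size were not detectable at this depth. All 5 were listed through NL alone, so their lower calls against NL are a description of size. Against NL, Hoxb5 was lower in FOXO1AAA, with 2, 16, 5 and 10 reads in NL and 1, 0 and 2 in FOXO1AAA (log2 fold change -2.33 ± 0.56, adjusted p = 0.0104). This call was lost at the same FPKM total (-1.23, adjusted p = 0.185). Hoxb4 was lower as well (-1.72 ± 0.53, adjusted p = 0.0488), a call that did not hold without NL replicate 2 (0.0654), NL replicate 4 (0.124), c-MYC replicate 1 (0.0616), 2 (0.0569) or 3 (0.055), or FOXO1AAA replicate 1 (0.104) or 2 (0.194), nor at the same FPKM total (0.583). The annotated span of Hoxa3 holds Hoxa4 and Hoxa5 on the same strand, and Dlx1as, an antisense transcript of the DLX1 locus at 0.757 ± 0.704 FPKM (SD, n = 4) in NL, overlaps genes of the other strand, so that reads of these genes may be shared.

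**Figure D4:**
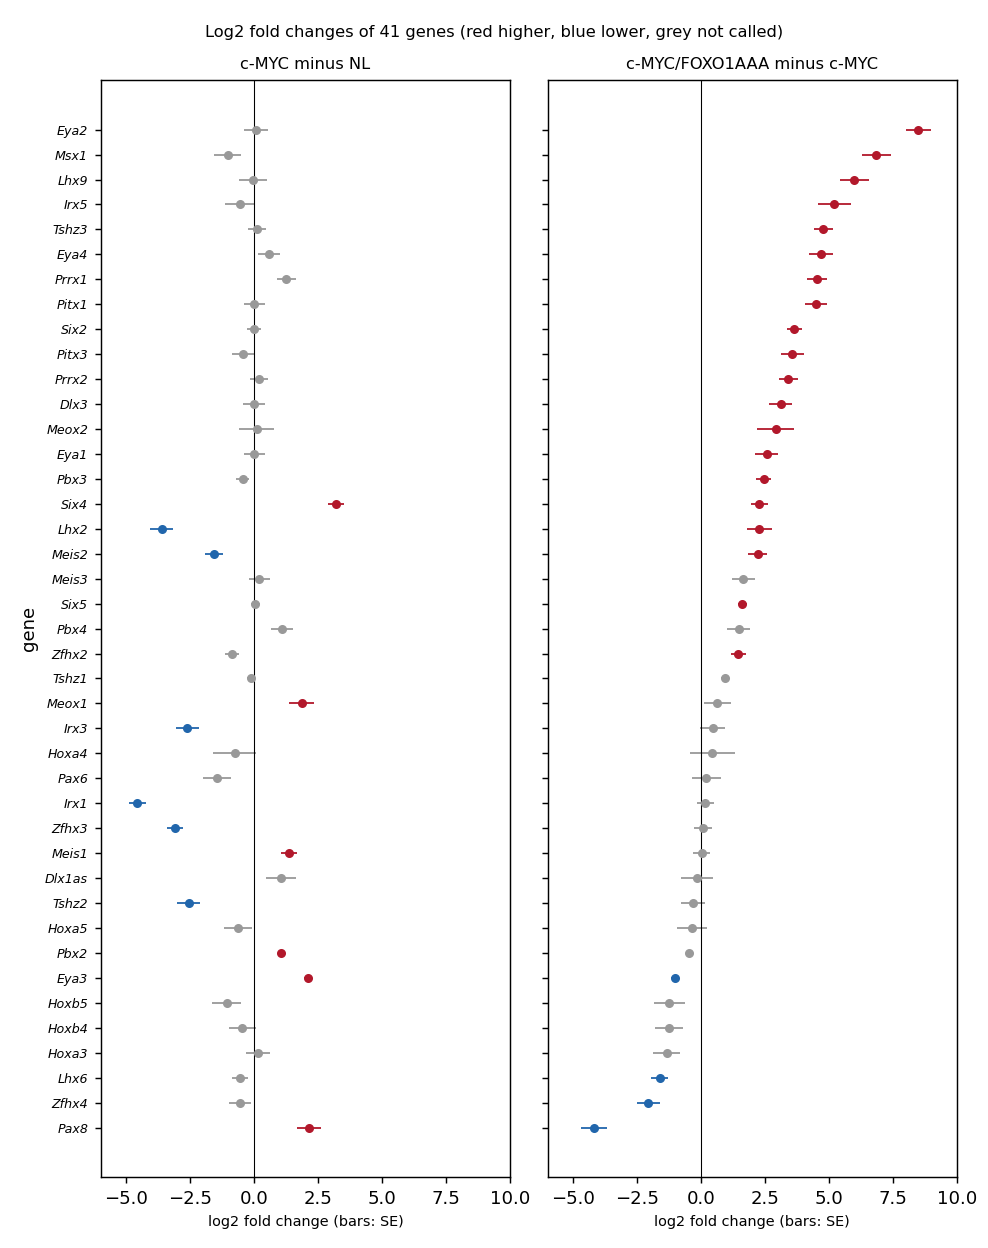
Log2 fold change (points) with its standard error (bars) of 41 of the 43 genes for c-MYC minus NL (left) and c-MYC/FOXO1AAA minus c-MYC (right), ordered by the right panel; red marks genes called higher, blue lower and grey not called. On the right 20 genes are red, from Eya2 at 8.48 downwards, and 4 are blue, down to Pax8 at -4.19; on the left 6 are red and 6 blue.

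Both tumor groups were also compared with NL over all members. In FOXO1AAA, 23 members (53.5%) were higher than in NL, where 31.2% of all genes were, and 9 (20.9%) were lower, against 24.6%, with a median log2 fold change of 1.38 beside 0.26 for all genes. These counts hold the members listed through FOXO1AAA alone. Of the 19 members that reached the level in at least 2 c-MYC libraries, 8 (42.1%) were higher, where 29.6% of the 13642 genes listed in the same way were, and 5 (26.3%) were lower, where 23.7% were, with a median of 0.89 beside 0.25. Setting all libraries to the same FPKM total, which moved the median of all genes in this comparison to 1.36, gave 29 higher and 4 lower. Of the 13 members called in c-MYC against NL, Irx1, Irx3, Tshz2 and Zfhx3 were lower in both tumor groups than in NL and not called between the tumor groups, while Lhx2 and Meis2 were not called between FOXO1AAA and NL. The 3 comparisons share libraries, so their calls are not independent of each other.

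Genes of related function showed how far the members' course was shared. Of 98 homeobox genes of other families 36 were listed, of which 14 were higher (38.9%, against 17.2% of all genes) and 8 lower (22.2%, against 11.6%) in FOXO1AAA than in c-MYC. Of the 26 that reached the level in at least 2 NL libraries 8 were higher (30.8%, against 13.4%) and 6 lower (23.1%, against 12.3%). Satb1, a chromatin organizer best known from T cells, stood at 18.3 ± 2.16 FPKM (SD, n = 3) in FOXO1AAA and 0.0731 ± 0.0428 (n = 3) in c-MYC, and Hlx, a factor of gut and liver mesenchyme, at 38.3 ± 10.3 and 1.21 ± 0.503. Cux2, a CUT-class homeobox factor, went the other way, from 7.32 ± 1.13 FPKM in c-MYC to 0.152 ± 0.0632 in FOXO1AAA. Lmo1, a LIM cofactor, was the 1 of 5 listed genes of its group called between the tumor groups, where 17.2% of all genes were higher. It stood at 8.28 ± 2.88 FPKM in FOXO1AAA and 0.0138 ± 0.0239 in c-MYC. Lmo1 was listed only with the help of the FOXO1AAA libraries, so its rise is a description of size. Of the 4 genes of its group that reached the level in at least 2 NL libraries, 0 were called between the tumor groups. Of the 47 Polycomb and MLL regulators, which hold homeobox genes off or on through histone marks, 7 were higher in FOXO1AAA than in c-MYC (14.9%, near the 17.2% of all genes) and 0 lower (0 also at an unadjusted p under 0.05 and by voom), with a median of 0.14. In c-MYC against NL, 19 were higher (40.4%, against 22.5% of all genes) and 7 lower (14.9%, against 22.3%). Cbx2, a reader of the Polycomb mark, was lower in c-MYC than in NL, by 1.75 ± 0.23 on the log2 scale (adjusted p = 0.00074), and higher in FOXO1AAA than in c-MYC, by 2.85 ± 0.25 (adjusted p = 1.61e-05). The CDX factors Cdx1, Cdx2 and Cdx4 were not among the listed genes. Retinoic acid, a signal that sets HOX levels in the embryo, had 16 listed genes. Of these, 8 were lower (50.0%, against 22.3% of all genes) and 1 higher in c-MYC than in NL. In FOXO1AAA, 6 were higher than in c-MYC (37.5%, against 17.2%) and 4 lower. Cyp26b1, which breaks retinoic acid down, stood at 1.97 ± 0.725 FPKM (SD, n = 4) in NL, 0.039 ± 0.000577 (n = 3) in c-MYC and 1.14 ± 0.253 (n = 3) in FOXO1AAA.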

How the data were processed

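RNA-seq was measured in 10 mouse liver libraries. The authors deposited 1 table of 17069 rows with log2 FPKM values, made from read counts per Ensembl gene that were given Entrez symbols and scaled per library, with about 2.0 reads added before the logarithm. FastQC 0.11.7 and the build GRCm38 are named in the submitters' processing notes, and aligner and counter are not given in the sources used here. All 10 value columns matched a sample (0 left out), and 372 rows without a symbol (2.18% of rows) were not used. Every listed gene exceeds 0.5 CPM in at least 2 libraries, a filter of the authors that was read from the values.

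For 16695 of 16697 named genes 1 gene length turned the log2 values into whole reads (within 0.0005 of a whole number plus 1e-08 per read), which gave the reads, FPKM without added reads, and library depth. This was the length of an annotated transcript (GENCODE M21) for 97.7% of 16623 matched genes. The comparisons used limma 3.58.1 (R 4.3.3): treat, 2-sided, against a 1.5-fold change, trended and robust variance, all 10 libraries in 1 fit, Benjamini-Hochberg over 16697 genes, called below 0.05. The study's own test, also against a fold change, was run on counts. Log2 fold changes are on the deposited scale and understate low genes, and errors beside them are SE, those beside levels SD. A fold against a group at 0 reads in every library is a bound against 3 reads over that group, and one against a group of 1 to 3 reads is a pooled ratio with an exact 95% (Clopper-Pearson) interval; both cover counting error only. Scripts were tested on simulated data.

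The members and gene lists were chosen with earlier results of these data known. Full values are given for the 10 members with the largest called change in each direction between the tumor groups, the 6 in each direction between c-MYC and NL, the 3 most abundant in each group, and others fixed by name, among them Six4, Eya1, Eya2, Meis1, Pbx3 and Prrx1 (a few genes that this rule selects are counted but not reported here by name); of other lists at most 4 called genes are named. Alternatives were the pseudocount (0.1 or 1 FPKM), filters on low values, scaling, the tested fold, the variance settings, the groups fitted, voom on the recovered reads, the replicate block and leaving out each library. Promoters and their coordinates come from RefSeq (GRCm38.p6), gene positions from GENCODE M21 (GRCm38), both matched by symbol.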

Additional observations from a re-analysis of the deposited data

Results flagged for a closer look

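A pair of values lay apart from the other libraries of their group by Dixon's test, which flags about 1 group in 20 by chance and was run only in NL, the group with 4 libraries. Hoxb4 stood at 0.565 FPKM in NL replicate 4, where the other 3 NL libraries lay between 0.141 and 0.207. Meox1 stood at 0.244 FPKM in NL replicate 1, with 6 reads, where the other 3 NL libraries had 1 read each.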

How the results depend on the processing

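Of 75 fold changes checked (each call of a member, and 4 that were not called), 40 kept direction and call in every alternative, 35 lost or gained a call in at least 1, and 0 reversed. The count of members higher in c-MYC than in NL, 6, became 3 with 1 FPKM added before the logarithm, 2 where the test kept only the 18 members whose mean was 1 FPKM or more, 10 at the same FPKM total and 2 against a 2-fold change, and the 7 lower became 3 with the filter on the mean. Between the tumor groups, the 22 higher became 14 with 1 FPKM added and 10 with the filter on the mean, and the 4 lower became 2 with 1 FPKM added, 7 under quantile normalization and 1 against a 2-fold change. Against NL, the 23 higher in FOXO1AAA became 13 where only the 26 members with at least 1 FPKM in 3 libraries were tested and 9 with the filter on the mean, and the 9 lower became 5 with 1 FPKM added, 3 with the filter on the mean and 4 at the same FPKM total. The filters test fewer members and the added 1 FPKM shrinks differences below 1 FPKM by construction, and for the other settings the cause was not tested. Leaving out each library in turn gave 4 to 6 higher and 7 to 7 lower members in c-MYC against NL, 20 to 23 and 2 to 4 between the tumor groups (2 lower without c-MYC replicate 2 or without FOXO1AAA replicate 1, which ended the calls of Eya3 and Zfhx4, and of Eya3 and Lhx6), and 22 to 24 and 8 to 10 in FOXO1AAA against NL. The replicate numbers of the titles do not pair the libraries: the deviations of same-numbered libraries correlated between -0.037 and 0.031 over 9 pairs. A replicate block gave 5 higher and 7 lower members, 22 and 3, and 23 and 8 in these comparisons, ending the calls of Meox1 (adjusted p = 0.0895), Eya3 (0.0593) and Hoxb4 against NL (0.109). Depth limited the faint members: 13 of the 43 in NL, 12 in c-MYC and 3 in FOXO1AAA had at most 3 reads in every library.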
